A study of Mus musculus with 2 samples.

Results

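Interleukin ligands are the secreted proteins through which leukocytes and stromal cells signal to each other, and here they are followed in cells sorted as lymph node stroma. The members were the genes whose name in the scanner files is Il followed by a number, with or without a letter from a to f, or the older name Il1f with a number. Il7, Il15, Il33 and Il34 were left out by the rule. It gave 34 genes, measured by 50 probes, of 37074 gene names on the array. The rule reads gene names only.

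Interleukins act through receptors built from a private chain and, often, a chain shared by several ligands, and most then signal through JAK kinases and STAT factors. Members of the IL-1 and IL-17 families signal instead through adaptor proteins that lead to NF-kB. In lymph nodes, T cells are a main source of IL-2, IL-4, IL-17A and IL-21, macrophages and dendritic cells of IL-1 beta and IL-12, and activated fibroblasts of IL-6 and IL-11. Fibroblastic reticular cells are the node's scaffold-building fibroblasts, and with the endothelial cells they make up most of what is sorted as CD45-.

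RNA came from female mice. Stromal cells of normal lymph nodes had 1 array, and so had those of tumor-draining nodes, taken 2 weeks after 4T1 mammary carcinoma cells were injected under the skin at the mammary gland. The labels name the hosts as C57BL/6, while 4T1 is known as a BALB/c line, so a strain mismatch and the tumor's other effects cannot be told apart. Both samples were sorted as CD45- cells, and neither the number of mice nor their age is given in the sources used here. CD45 is encoded by Ptprc, whose signal was 3702 in normal and 17432 in tumor-draining nodes. With 1 array a group no test was possible, no value has a check between mice, and so few arrays limit the precision.

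Of the 34 ligands, 19 were well above background in normal and 20 in tumor-draining nodes, by the mark that the scanner software sets on a spot. That was 55.9% and 58.8% of the ligands, against 63.9% and 62.4% of all gene names. On both arrays 17 ligands were above background, or 50%, against 59.8% of all gene names. On at least 1 array 22 were, or 64.7%, against 66.6%. Il3, Il13 and Il17f were above background only in tumor-draining nodes, as were 2.64% of all gene names. Il19 and Il25 were so only in normal nodes, as were 4.13%. The other 12 were above background on neither array: Il1a, Il1f5, Il1f6, Il1f9, Il1f10, Il2, Il5, Il9, Il17c, Il20, Il23a and Il31. Their processed signals, in the scanner's linear units, ran from 1.55 to 4.29 in normal and from 1.66 to 8.07 in tumor-draining nodes, and no difference is given for them.

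**Figure D1:**
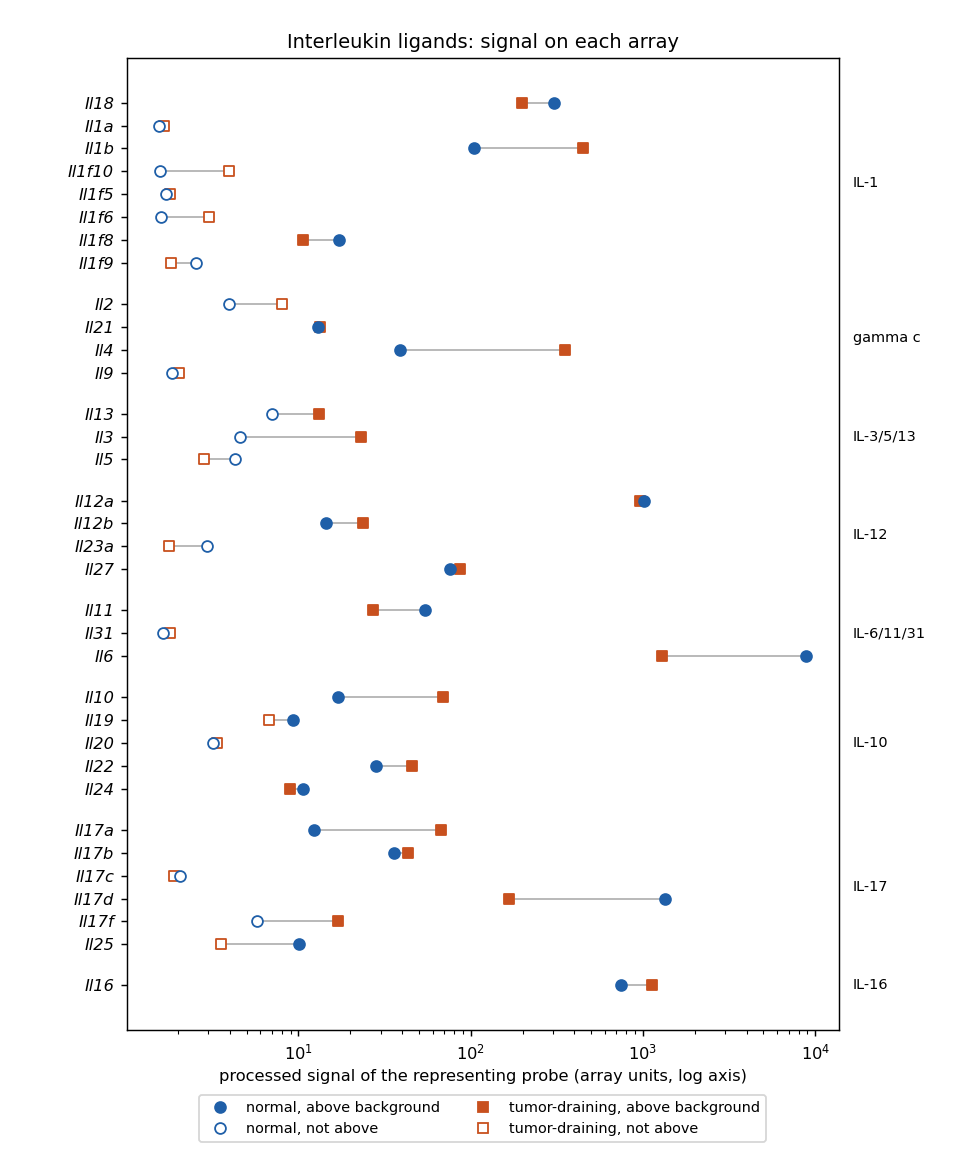
Processed signal (log axis, array units) of the probe that stands for each of the 34 interleukin ligands, on the normal array (circles) and the tumor-draining array (squares), grouped by family. Filled symbols are well above background. A reader should see that 12 ligands have no filled symbol and that Il6 and Il17d lie far to the right on the normal array, at 8845 and 1346.

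Il4, Il17a, Il1b and Il10 were higher by 2-fold or more in tumor-draining nodes, and Il6 and Il17d were lower by as much. These calls are by size alone, on signals scaled to the 75th percentile of each array. The 4 higher genes were 23.5% of the 17 ligands above background on both arrays, where 11.1% of all genes were that much higher. The 2 lower genes were 11.8%, where 15.9% of all genes were that much lower. The other 11 were within 2-fold. Il3 and Il17f, measured only in tumor-draining nodes, also passed 2-fold as lower bounds. With such bounds 6 of 22 measured ligands were higher (27.3%, against 11.5% of all genes) and 2 were lower (9.09%, against 16.5%). With normexp, another background correction, 2 of 22 were higher (9.09%, against 5.68% of all genes), and the calls for Il10, Il17a, Il3 and Il17f were lost. The median log2 difference of the 17 ligands was 0.26, and that of all genes above background on both arrays was 0.12.

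**Figure D2:**
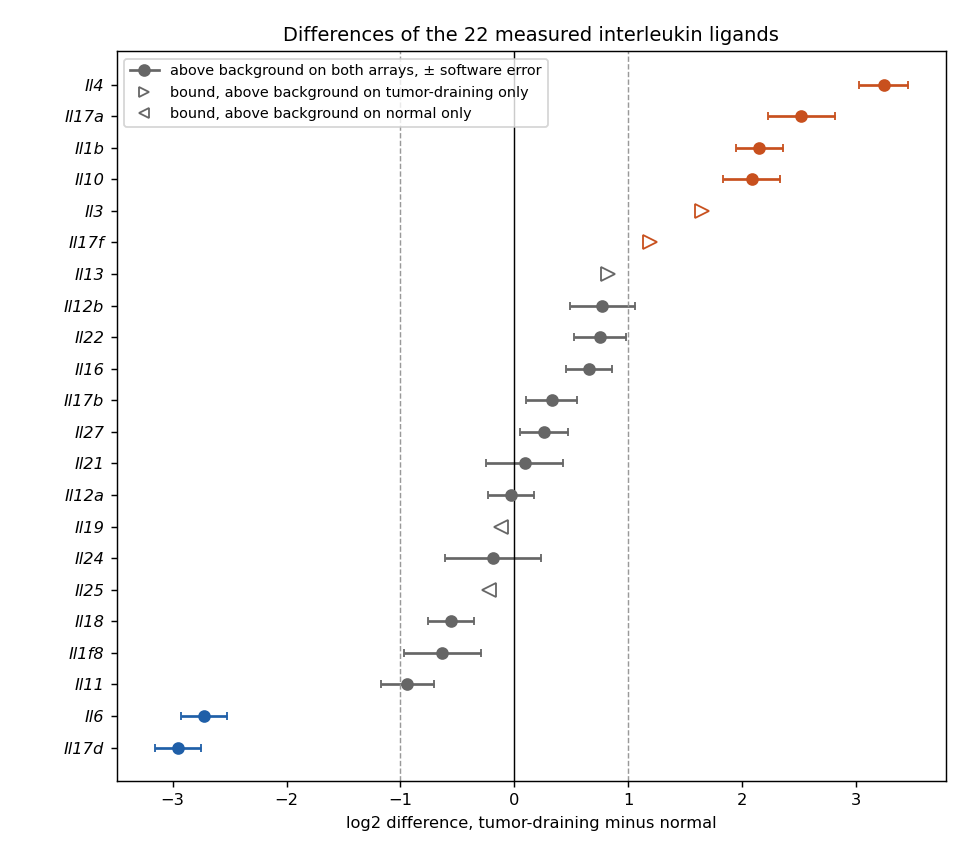
Log2 difference, tumor-draining minus normal, of the 22 ligands above background on at least 1 array. Circles are ligands measured on both arrays with the scanner software's error of the 2 spots, open triangles are bounds, and dashed lines mark 2-fold. The 4 highest circles lie between 2.09 and 3.25, and Il6 and Il17d lie at -2.73 and -2.95.

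The letters upstream of the 2 ligands with the highest and the 2 with the lowest differences are shown because these 4 genes span the range of all ligands. Each run holds the 250 bases before the RefSeq gene start in GRCm38.p6, 5′ to 3′. Capitals mark matches, on either strand, to a TATA box (TATAAA), an NFAT core (TGGAAA), AP-1 (TGANTCA), a STAT6-type site (TTC and GAA with any 4 bases between them), other STAT sites (TTCNNNGAA) or NF-kB (GGG, any 2 bases, TT, any base, CC).
Il4, chr11:53618666-53618915, minus strand: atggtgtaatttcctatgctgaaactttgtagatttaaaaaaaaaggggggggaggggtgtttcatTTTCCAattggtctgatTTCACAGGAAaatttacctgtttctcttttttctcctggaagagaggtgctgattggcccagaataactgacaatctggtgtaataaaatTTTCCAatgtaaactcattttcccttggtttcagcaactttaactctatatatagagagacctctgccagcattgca
Il17a, chr1:20730655-20730904, plus strand: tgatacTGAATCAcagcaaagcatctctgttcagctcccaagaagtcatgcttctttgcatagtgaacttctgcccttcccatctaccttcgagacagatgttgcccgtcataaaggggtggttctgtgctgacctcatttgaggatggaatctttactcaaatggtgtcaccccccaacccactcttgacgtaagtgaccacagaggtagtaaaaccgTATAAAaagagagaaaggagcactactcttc
Il6, chr5:30012864-30013113, plus strand: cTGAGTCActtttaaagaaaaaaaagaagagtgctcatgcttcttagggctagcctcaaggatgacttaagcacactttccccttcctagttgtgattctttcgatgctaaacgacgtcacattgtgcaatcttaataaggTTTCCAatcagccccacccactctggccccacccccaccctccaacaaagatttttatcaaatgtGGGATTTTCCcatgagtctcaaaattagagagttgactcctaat
Il17d, chr14:57524579-57524828, plus strand: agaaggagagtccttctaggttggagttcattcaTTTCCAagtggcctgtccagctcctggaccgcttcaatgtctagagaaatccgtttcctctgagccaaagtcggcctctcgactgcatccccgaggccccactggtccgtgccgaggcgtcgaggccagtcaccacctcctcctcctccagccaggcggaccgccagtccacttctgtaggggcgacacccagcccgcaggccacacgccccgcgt
The Il4 window held the NFAT letters at 184 and 77 bases before the start and a STAT6-type match at 167. Il17a had an AP-1 match at 244 and a TATA box at 31 bases before the start. Il6 had an AP-1 match at 249, the NFAT letters at 109 and an NF-kB match at 44. In the Il17d window the NFAT letters at 216 were the only match. Over 19827 promoters of this length, the NFAT letters were found in 19.8%, AP-1 in 7.5%, the STAT6 type in 6.19%, the TATA box in 14.9%, the other STAT letters in 7.63% and NF-kB in 3.98%. Of the 20 ligands with such a window, 9 held the NFAT letters, 6 the STAT6 type, 5 the TATA box, 4 AP-1, 3 NF-kB and 1 the other STAT letters. A match is a description of letters and not of a bound site.

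Among ligands of the common gamma chain, the receptor subunit Il2rg, Il4 had the highest difference of the 17. Il4 encodes the cytokine that drives T helper type 2 cells and B cell switching to IgG1 and IgE. Its signal was 38.7 in normal and 352 in tumor-draining nodes, a difference of 3.25 ± 0.21 on the log2 scale, or 9.48-fold. The error here and below is the software's estimate for the 2 spots and covers the spot measurement only. With normexp the difference was 2.04, so Il4 stayed above 2-fold.

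Il21, the cytokine with which follicular helper T cells support germinal centers, was read by a pair of probes that disagreed. The probe with the higher mean log2 signal, which stands for the gene here, had signals of 13.04 and 13.32, a difference of 0.09 ± 0.34 that lies within its error. The other had 1.75 in normal nodes, not well above background, and 51.7 in tumor-draining nodes, where it was. That second probe gave a bound of at least 6.99-fold higher. Both lie on the minus strand of mm9, as the scanner files map them, and the first 30 of their 60 bases are shown because the result for Il21 turns on which is read.
Il21, chr3:37124300-37124359, minus strand: aaatgcatttctttcacttccatgttgtgt
Il21, chr3:37121681-37121740, minus strand: tgtttgtgttcatggcttcttatttaagac
The first of these is the probe that stands for Il21. The second has the higher linear signal in tumor-draining nodes, and a choice by mean linear signal would take it and call Il21 higher. The mean over both probes was 2.52 on the log2 scale, which also calls Il21 higher. That mean takes the second probe's normal signal as it stands, though it was not above background, and not as a bound. The call for Il21 therefore depends on the probe and on how the probes are combined. Il2, the T cell growth factor, had signals of 3.97 and 8.07, and Il9, a mast cell growth factor, had 1.85 and 2.02. Neither was above background on either array.

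Il13, Il5 and Il3 complete the type 2 and common beta chain ligands, and none was above background on the normal array. Il3, a growth factor of basophils and mast cells, had a signal of 4.61 in normal and 23.2 in tumor-draining nodes. It was at least 3.13-fold higher, as the tumor-draining signal against the dimmest probe called above background on the normal array. With normexp its bound was 0.44 on the log2 scale, under 2-fold. A second Il3 probe, with signals of 1.60 and 2.27, was above background on neither array. With the mean over both probes the call for Il3 was lost. Il13, which shares receptor chains with Il4, had 7.02 and 13.1, a bound of at least 1.77-fold. Il5, the eosinophil growth factor, had 4.29 and 2.81 and was above background on neither array.

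In the IL-17 family, Il17a was higher, Il17d was lower and Il17b, whose signals were 35.96 and 43.3, stayed within 2-fold. Il17a encodes the cytokine of Th17 and gamma delta T cells that calls in neutrophils. Its signal was 12.3 in normal and 67.4 in tumor-draining nodes, a difference of 2.52 ± 0.29, or 5.74-fold, and 0.79 with normexp, under 2-fold. Il17f, its neighbor and dimer partner, had 5.78 and 16.9, a bound of at least 2.29-fold, which with normexp was 0.33 on the log2 scale, under 2-fold. The Il17f probe is 60 bases long but spans 1346 bases of mm9, so it crosses an intron.

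Il17d, a family member expressed outside the T cell lineage, had a signal of 1346 in normal and 166 in tumor-draining nodes. The difference was -2.95 ± 0.20, or 7.75-fold, and it was the lowest of the 17. Il25, the epithelial cytokine IL-17E, had 10.1 and 3.56 and was at least 1.17-fold lower, a bound that was lost when scaled to the spike-ins. Il17c had signals of 2.07 and 1.90 and was above background on neither array. The start of the probes for Il17a and Il17d is shown because these are the ligands of this family that moved past 2-fold in opposite directions with both signals above background.
Il17a, chr1:20724404-20724463, plus strand: gctttactatttgtttatttaaggttctct
Il17d, chr14:58161931-58161990, plus strand: gcgcccctttgttctttagcttatggatgg

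In the IL-6 and IL-11 group, Il6 was lower and Il11 lay just within 2-fold. Il6, the fever and acute phase cytokine that activated fibroblasts make, had a signal of 8845 in normal and 1281 in tumor-draining nodes. Its difference was -2.73 ± 0.20, or 6.61-fold. A second Il6 probe, with 4082 and 524, gave -2.90, so both probes were lower by a like amount. Both lie on chromosome 5, and their first 30 bases are shown because the result rests on a pair of separate probes.
Il6, chr5:30346367-30346426, plus strand: ctgttacctagccagatggtttcttggaat
Il6, chr5:30346159-30346218, plus strand: gtatctgacttatgttgttctctacgaaga
Il11, a fibroblast cytokine of the same receptor family, had signals of 54.1 and 27.0, a difference of -0.94 ± 0.23, or 1.92-fold. It passed 2-fold after loess normalization, at -1.08, and was near 0 when scaled to the spike-ins, at -0.12. Il31, an itch cytokine of T cells, had 1.64 and 1.80 and was above background on neither array.

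Of 8 IL-1 family ligands, 3 were above background on both arrays, and Il1b was higher while Il18 and Il1f8 were within 2-fold. Il1b encodes IL-1 beta, the inflammasome-processed cytokine of macrophages and neutrophils. Its signal was 105 in normal and 448 in tumor-draining nodes, a difference of 2.15 ± 0.21, or 4.45-fold. A second probe, with 27.1 and 98.2, gave 1.92, and the dimmest, with 12.3 and 17.5, gave 0.57. All 3 were higher, and the dimmest was the one within 2-fold. That probe lies at chr2:129195465-129195524 of mm9 and carries an Ensembl transcript's accession, while the other 2 carry the RefSeq one.

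Il18, an inflammasome product that raises interferon gamma, had signals of 306 and 199, a difference of -0.55 ± 0.20. Il1f8, the IL-36 beta gene, had 17.1 and 10.6, a difference of -0.63 ± 0.34, and its second probe was above background on neither array. Scaled to the spike-ins both turned positive, at 0.27 and 0.19. Il1a and the genes named Il1f5, Il1f6, Il1f9 and Il1f10 were above background on neither array. Il1f5 encodes the antagonist of the IL-36 receptor and not an activating ligand.

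The 3 measured IL-12 family ligands were within 2-fold. These proteins pair an alpha with a beta subunit, and Il12a, the alpha subunit p35 of IL-12, had signals of 1018 and 956, a difference of -0.03 ± 0.20 within its error. Il12b, the beta subunit p40 that IL-12 and IL-23 share, had 14.4 and 23.7, a difference of 0.78 ± 0.29. Il27, the alpha subunit of IL-27, had 75.4 and 86.7, a difference of 0.26 ± 0.21. Il23a, the alpha subunit of IL-23, had 2.94 and 1.77 and was above background on neither array. The beta partner of Il27, Ebi3, was 3.08-fold higher, with signals of 191 and 563.

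In the IL-10 family, Il10 was higher and the others were within 2-fold or not measured. Il10, the cytokine that restrains macrophages and dendritic cells, had a signal of 17.04 in normal and 69.3 in tumor-draining nodes. The difference was 2.09 ± 0.25, or 4.24-fold, and 0.80 with normexp, under 2-fold. Il22, which acts on epithelium, had 28.3 and 45.8, a difference of 0.75 ± 0.23, and its second probe gave 0.42. Il24, a stress-induced family member, had 10.65 and 8.97, a difference of -0.19 ± 0.42 within its error, and of 0.64 when scaled to the spike-ins. Il19 had 9.34 and 6.74, a bound of at least 1.08-fold lower, but its difference of -0.41 ± 0.55 lay within its error. That bound was lost when scaled to the spike-ins. Il20 had 3.19 and 3.38 and was above background on neither array.

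Il16, a chemoattractant that binds CD4, had signals of 743 and 1123, a difference of 0.66 ± 0.20. A second probe, with 92.9 and 139, gave 0.64. The dimmest, with 11.99 and 12.4, gave 0.11, so the 2 brighter probes read alike and the dimmest differed less.

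Several ligands lie side by side in the genome, and neighbors did not always move alike. On chromosome 11 of mm9 the Il4 probe lies at chr11:53426076-53426135, 19.4 kb from that of Il13, which lies 92.7 kb from that of Il5. Il4 was higher, Il13 was above background only in tumor-draining nodes, and Il5 on neither array. On chromosome 1 the Il17a and Il17f probes lie 43.6 kb apart, and both ligands passed 2-fold. The Il10 probe lies 91.4 kb from that of Il19 in the cluster that also holds Il20 and Il24, and of these 4 only Il10 passed 2-fold. Il1b lies 64.3 kb from Il1a, which was above background on neither array. The files do not state exons or UTRs.

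Most of the ligands were dim, which sets how well they were measured. The median signal of the 17 was 38.7 in normal and 69.3 in tumor-draining nodes, against 278 and 244 over all genes above background on both. Of the 17, 10 had a mean signal under 100, and 2 of those 10 were higher and none lower. In that range 11.4% of all genes were at least 2-fold higher and 13.7% lower. Of the 7 brighter ligands 2 were higher and 2 lower, where 10.9% and 17.1% of genes were. Probes printed several times on the array gave the repeat error of a log2 difference between spots. Its median SD was 0.27 over 2 probes with a signal under 30, 0.11 over 5 probes from 30 to 100, 0.093 over 11 from 100 to 1000 and 0.049 over 280 above that. The differences of Il4, Il17a, Il1b, Il10, Il6 and Il17d were several times these errors, which do not cover differences between mice or sorts.

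**Figure D3:**
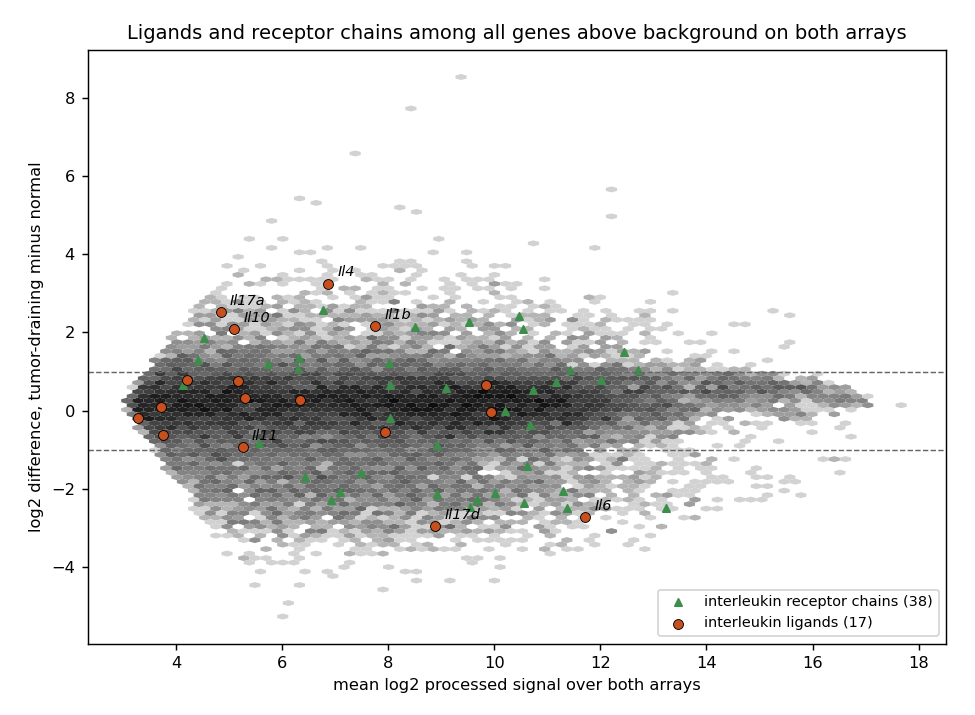
Log2 difference, tumor-draining minus normal, against mean log2 processed signal. Grey hexagons are the 22172 genes above background on both arrays (darker for more genes, on a log scale), circles the 17 ligands, triangles the 38 receptor chains, and dashed lines 2-fold. Ligands past 2-fold and Il11 (-0.94) are named. Il17a and Il10 lie at the dim end and Il6 at the bright end.

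Receptor chains for interleukins went both ways. Of 40 chains, 38 were above background on both arrays, and 14 of these were higher by 2-fold or more and 13 lower, or 36.8% and 34.2%, against 11.1% and 15.9% of all genes. Il12rb1 of the IL-12 receptor (2.56) and Il2rb of the IL-2 receptor (2.43) had the highest differences, and Il11ra1 of the IL-11 receptor (-2.49) and Csf2rb, the common beta chain (-2.48), the lowest. Il23r was above background only in tumor-draining nodes, at least 3.44-fold higher. Counting that bound 15 chains were higher, beside 11.5% of all genes, and 8 were with normexp, beside 5.68%. Il20ra was above background on neither array.

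Ligands and the chains that receive them differed in direction in several pairs. Il1b was higher while Il1r1, the signaling receptor, went from 1777 to 309 (-2.46), and the decoy Il1r2 had a difference of -0.01. Il17a and Il17f were higher while Il17rc, a chain of their receptor, went from 2183 to 484 (-2.11), and its partner Il17ra had a difference of 0.65. For Il4, the chain of the type II receptor, Il13ra1, was lower (-2.29), Il2rg was higher (1.05) and Il4ra was within 2-fold (0.73). Il3 had its bound in the other direction from both of its chains, Il3ra (-1.42) and Csf2rb.

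Il6 and Il11 were both on the lower side, with Il6st, the shared transducer gp130, at -2.05 on its brightest probe and from -2.05 to 0.60 over its 3 probes. The private chain Il6ra had a difference of 0.77. Il10 was higher along with its private chain Il10ra, which went from 736 to 2979 (2.08), while the shared Il10rb had -0.37. Il21r was higher as well (2.27), and Il18r1 and Il18rap were higher (2.14 and 1.85) where Il18 was not. Il1rl1, the chain that binds IL-33, had a difference of 1.22 on its brightest probe and of -1.91 on another, and the mean of both was -0.34. Over all 3 of its probes the mean was 0.31.

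**Figure D4:**
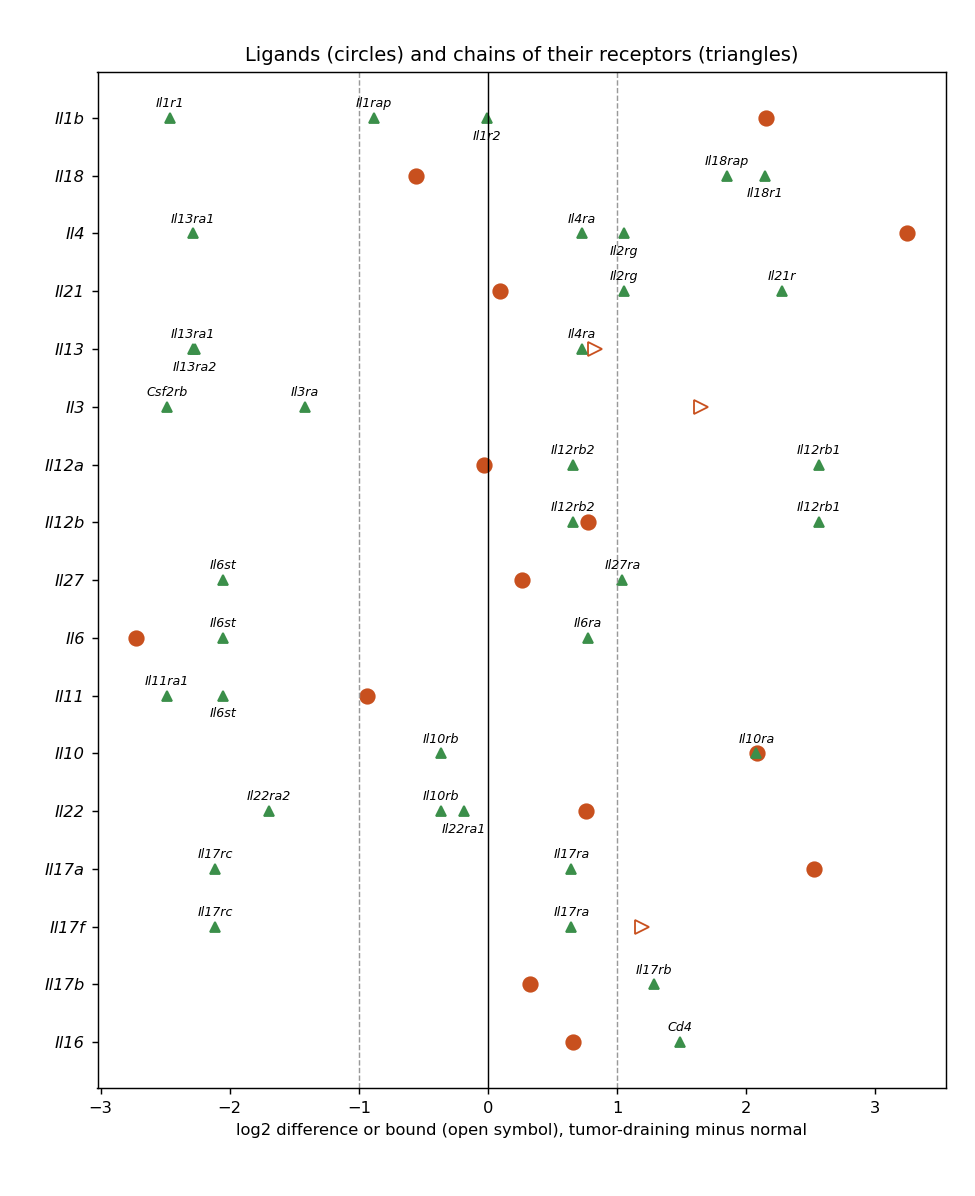
Log2 difference, tumor-draining minus normal, of 17 ligands (circles, or open triangles for bounds) and of the chains known to receive each (green triangles, named), with dashed lines at 2-fold. Il1b, Il17a and Il3 lie to the right with Il1r1 (-2.46), Il17rc (-2.11) and Csf2rb (-2.48) to the left, while Il10 and Il10ra lie together near 2.08.

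Of 13 partners and processing genes of the ligands, 3 were at least 2-fold higher and 1 lower, beside 11.1% and 15.9% of all genes. Clcf1, a partner cytokine of the IL-6 family, was highest (1.69), followed by Ebi3 (1.62), and Il6st and Il18bp, the IL-18 trap (-0.84), were lowest. Of 14 signaling genes, 3 were higher and none lower, beside the same 11.1% and 15.9%, with Stat4 (2.33) at the top and Jak1 (0.17) and Myd88 (-0.43) at the bottom. Of 8 regulators of helper T cell fate, 4 were higher and none lower, again beside 11.1% and 15.9%. Foxp3 of regulatory T cells (2.63) and Gata3 of type 2 cells (2.35) led, and Maf (-0.74) was lowest.

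Markers of leukocytes and of stroma are given beside the shares of all genes, of which 11.1% were higher and 15.9% lower. At least 2-fold higher were 8 of 8 pan-leukocyte genes (summed signal 30247 in normal and 109036 in tumor-draining nodes), 10 of 12 T cell genes (17390 and 74974) and 7 of 8 NK and innate lymphoid genes (6474 and 13990). Also higher were 7 of 9 B cell genes (26852 and 63196) and 4 of 7 plasma cell genes (14156 and 33973). The plasma cell count includes Tnfrsf17 by a bound, and with bounds 11.5% of all genes were higher. Of 8 mast cell and basophil genes (1794 and 2692), 4 were higher: Mcpt8 (2.75), Hdc (1.35), Ms4a2 (1.35) and Fcer1a (1.26). The other 4 stayed within 2-fold: Cpa3 (0.49), Mcpt4 (-0.06), Tpsb2 (-0.49) and Kit (-0.53). The T cell gene Trac was above background on neither array. Of 8 neutrophil genes 1 was higher and 1 lower (52265 and 62331), shares near those of all genes. Of 10 dendritic cell genes 2 were higher and 1 lower (52235 and 91105), and Ccl22 and Xcr1 were above background on neither array. The dendritic cell sums rest largely on Ccr7 (11915 and 52409) and Siglech (39238 and 37544). Of 10 macrophage genes 3 were lower and none higher (55055 and 28580). The stromal markers were all above background on both arrays, and at least 2-fold lower were 11 of 12 fibroblastic reticular genes (174108 and 62836), 10 of 10 blood endothelial (20833 and 2696), 7 of 8 lymphatic endothelial with 1 higher (46651 and 15586) and 6 of 8 pericyte genes (33350 and 12538). Ccl21a (32474 and 6278) and Pdpn (4624 and 1139) count in both the fibroblastic reticular and the lymphatic list, so these lists and sums overlap. The higher lymphatic gene, Nrp2, ran from -2.81 to 1.10 over its 3 probes. Col1a1 and Des, counted as lower, ran from -2.06 to 0.86 and from -3.36 to 0.42 over their probes. Il1rl1, counted among the higher NK and innate lymphoid genes, ran from -1.91 to 1.22 over its probes above background on both arrays. Of 8 epithelial genes 2 were higher (4862 and 7652). The part of these cell types in the ligand values was not tested, and fewer cells of a type cannot be told apart from less RNA per cell.

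The calls for the dim ligands moved with the background correction. Normexp with an offset of 50 left Il4 (2.04) and Il1b (1.69) at least 2-fold higher and put Il10 at 0.80, Il17a at 0.79 and the bounds of Il3 and Il17f at 0.44 and 0.33. The offset adds the same amount to both signals, so it shrinks ratios of signals smaller than itself. The raw spot means, before any subtraction, were 34.9 and 82.9 for Il17a, 40.3 and 94.02 for Il10, 28.2 and 48.5 for Il3 and 29.2 and 40.3 for Il17f, beside a typical local background of 22 and 21. Il6 and Il17d were lower by at least 2-fold with each alternative. Scaled to the spike-ins, which raised all differences by 0.82, 12 of 20 ligands were higher and 2 lower (60% higher, against 47.9% of all genes), or 85.7% of calls higher against 75% in the main setting, and 85.2% against 41.0% over all genes.

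**Figure D5:**
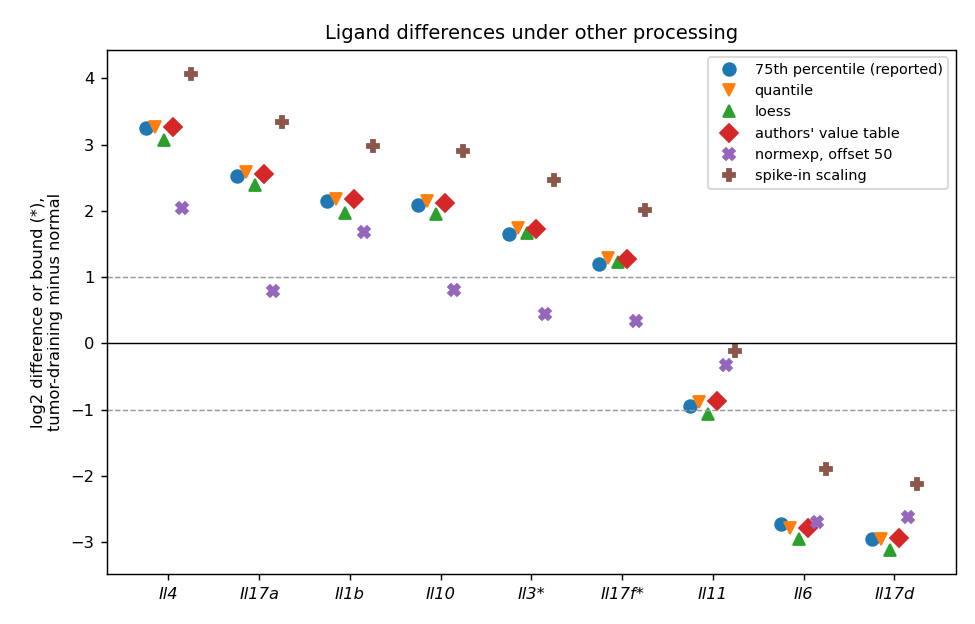
Log2 difference, or bound where starred, of the 8 ligands past 2-fold and Il11, under 6 ways of processing (symbols), with dashed lines at 2-fold. Under normexp (crosses) Il17a, Il10, Il3 and Il17f fall below the 2-fold line, at 0.79, 0.80, 0.44 and 0.33, while Il6 and Il17d stay under -1 throughout.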

How the data were processed

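Each deposited scanner file gives the linear intensity of every spot, for 2 one-color Cy3 arrays on 1 slide, processed by Agilent Feature Extraction 12.0.3.1 on mm9, per the file headers, while the submitters' processing notes name version 10.7 and limma. A value table, deposited by the authors, is in log2 units with no stated normalization. It followed the log2 processed signals across probes (r = 0.9999), its medians were 4.85 and 4.86, and it served as an alternative only. Its steps and centering stay unknown.

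Signals were log2-transformed and reduced by the 75th percentile of 59305 non-control spots, 374 on the normal and 358 on the tumor-draining array. Outlier spots (98 and 101) and control spots were left out, and no spot was saturated. The probe with the highest mean log2 signal over both arrays, called the brightest, stood for its gene. A probe needed the software's mark on 50% or more of its spots to be above background, and each ligand probe was 1 spot. A gene above background on 1 array only has a bound, against the higher of its dim value and the dimmest probe above background there (signals of 7.72 and 8.27). Calls are by size, at least 2-fold, with no test. The calling was run on signals simulated from genes above background on both arrays, with the same error at all signals. That run checks the calling steps only and does not tell how sure the calls of dim ligands are.

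The members and all lists were chosen with earlier results of these data known. All measured members are named, and of each pathway list the 2 highest, the 2 lowest and bounds past 2-fold, except 2 genes not reported here. Receptor chains of 17 ligands, Il17rd, Ebi3 and the marker genes named beside their lists were chosen for naming after their values were seen. RefSeq tables matched 31 of the 34 members by accession, and promoters of 20. Older names in the lists were matched through synonyms. Alternatives were normexp (offset 50), quantile, cyclic loess (span 0.3), scaling to 210 spike-in spots or to the median over probes measured on both arrays, no filter, a stricter filter, means over probes, outlier spots kept, the authors' table and, chosen after seeing the data, the probe with the highest mean linear signal. Work used R 4.3.3, limma 3.58.1, Python 3.11.15, numpy 2.4.6 and pandas 2.3.3.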

Additional observations from a re-analysis of the deposited data

How the results depend on the processing

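No ligand at least 2-fold higher or lower changed sign under the alternatives that gave it a value, which were 12 for Il6 and Il17d, 11 for Il4, Il1b, Il10 and Il17a, 10 for Il17f and 9 for Il3. The 6 higher ligands remained so with quantile and loess normalization, with scaling to the probes above background and in the authors' table, and Il6 and Il17d were lower under all 12. The mean over all probes of a gene kept 5 of the 6, lost Il3 and added Il21 (30% of 20 ligands, against 11.2% of genes). The mean over probes above background on both arrays kept Il4, Il17a, Il1b and Il10 (23.5% of 17 ligands, against 11.1%). A choice of probes by mean linear signal, added after seeing the data, kept the 6 and added Il21, for 7 of 22 (31.8%, against 11.6% of all genes). The count of higher ligands was 2 with normexp (9.09%, against 5.68% of genes), 12 when scaled to the spike-ins (60%, against 47.9%), and 0 with the stricter signal filter, which left 4 ligands (against 9.90% of genes). The median difference of 0.26 was 1.09 when scaled to the spike-ins and -1.38 with the stricter filter. Higher receptor chains, 15 with the bound, were 8 with normexp and 8 with the stricter filter, beside 5.68% and 9.90% of all genes. Lower receptor chains, 13 in the main setting, were 9 with the stricter filter, 11 with the mean over all probes of a gene and 14 with loess. Of all genes with a value, 16.6% were lower in the main setting. That share was 14.4% with the stricter filter, 15.1% with the mean over all probes and 18.8% with loess. Il1rl1 (main value 1.22) was 0.31 as the mean over all its probes. It turned to -0.34 as the mean over its probes above background on both arrays. By that mean Il17rd, counted as lower (main value -1.59), was -0.24. Of 237 ligand values under alternatives, 41 moved by more than the median SD between probes of a gene (0.27), as did 130 of 851 values of 73 pathway genes. Of ligands within 2-fold, Il12a (0.79), Il18 (0.27), Il1f8 (0.19) and Il24 (0.64) turned positive when scaled to the spike-ins, Il24 also with normexp, and Il21 was -0.01 after loess. The median repeat error was greatest for probes with a signal under 30, of which only 2 were printed often enough. Scaling to the spike-ins assumes that equal amounts were added, which the labels do not state. No paired analysis was possible because each group has 1 array.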
